A study of Mus musculus with 12 samples.

Results

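The genes described here are 51 ligands, antagonists, receptors, intracellular mediators and target genes of the TGF-beta family, which includes the bone morphogenetic proteins (BMP), the growth and differentiation factors (GDF), the activins, the inhibins and anti-Müllerian hormone (AMH). They were chosen by name, with earlier results of these data known. Their shares of called genes, set below against all genes, are thus descriptive. Of the 51, 50 had a row carrying their symbol alone among the 30176 genes of the array table, while Gdf15 was not analysed here. Expression was measured on 12 Affymetrix mouse transcriptome arrays, with 3 arrays in each of 4 groups, namely ovaries of DHT-treated mice, ovaries of control mice, gonadal fat of DHT-treated mice and gonadal fat of control mice. DHT (dihydrotestosterone) is a potent androgen that is not converted to estrogen. The mice were C57BL/6J females given a silicone capsule at 25 days of age, holding 5 mg DHT in DHT-treated mice and empty in control mice, and tissues were taken about 60 days later. Each array is labelled a biological replicate, but the labels do not say which ovary and fat pad came from the same mouse.

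Ligands of the family are secreted dimers that bring together type II and type I serine/threonine kinase receptors. The receptors phosphorylate SMAD proteins, with SMAD2 and SMAD3 serving TGF-beta and activin and SMAD1, SMAD5 and SMAD9 serving the BMPs, and these enter the nucleus with SMAD4. In the ovary, granulosa cells make inhibins, activins, follistatin and AMH, which act on follicle growth and on pituitary follicle-stimulating hormone. In adipose tissue, BMP and activin signals act on the commitment of progenitors and on lipid storage in mature adipocytes.

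All values below are the deposited log2 values, so a difference of 1 is a 2-fold change, and values of a group are listed in the order of replicates 1, 2 and 3. The median of an array was 4.35 to 4.43 for ovaries and 3.30 to 3.52 for fat pads, so levels were not compared between tissues, and no gene's level was set against that of another gene. In the fat columns, 26501 of the 65929 rows (40.2%), those of chromosomes 10 to 19, had been joined to the wrong names and were re-paired. Before the re-pairing, these rows of the fat arrays correlated with the mean ovary profile at r of 0.0130 to 0.0148, and after it at 0.939 to 0.949, against 0.937 to 0.946 for the other rows. Of the family genes called below, Fst, Gdf11, Bmp4, Bmpr1a and Smad2 lie on re-paired rows. So do others that were not called, among them Fstl3 and Id4. Of the 47 family genes tested in gonadal fat, 24 lay on rows that were not displaced. The ovary arrays carried the oocyte gene Zp3 at 7.74 to 8.55 and the granulosa gene Foxl2 at 7.51 to 8.16, and the fat arrays carried the adipocyte gene Adipoq at 9.43 to 9.97, with the granulosa gene Fshr below the median of every fat array. Oviduct RNA was present on some ovary arrays, with the oviductal glycoprotein gene Ovgp1 at 5.31, 10.3 and 11.3 in DHT-treated mice, against 5.55, 11.6 and 5.14 in control mice.

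Change was tested with limma within each tissue, and a gene was called at an adjusted p of at most 0.10. Of the 49 genes of the family tested in the ovaries, 1 rose, none fell and 48 were not called, which is 2.04% called against 1.26% of all 19119 genes (0.544% higher and 0.717% lower). At an unadjusted p of at most 0.05, the ovary comparison had 10 family genes, 5 higher and 5 lower (20.4%, against 13.3% of all genes). Of the 47 tested in gonadal fat, 3 rose, 3 fell and 41 were not called, which is 12.8% against 3.88% of 19251 genes (2.66% higher and 1.22% lower). At an unadjusted p of at most 0.05, gonadal fat had 14 family genes, 8 higher and 6 lower (29.8%, against 16.2%). The gene called in the ovaries was Tgfbr3, which was also called in gonadal fat. The effect of DHT differed between the tissues for 5 of 47 family genes (10.6%, against 6.14% of 18080 genes), 3 of them higher in gonadal fat and 2 lower, against 4.63% and 1.51% of all genes. The unadjusted count for the difference was 14 (29.8%, against 19.6%). The median change over the tested family was 0.01 in the ovaries (-0.00 over all genes tested), 0.03 in gonadal fat (-0.01 over all genes) and 0.03 for the difference between tissues (0.01 over all genes). Bmp5 was too low to be tested in either tissue, and Bmpr1b and Grem1 were too low in gonadal fat.

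**Figure D1:**
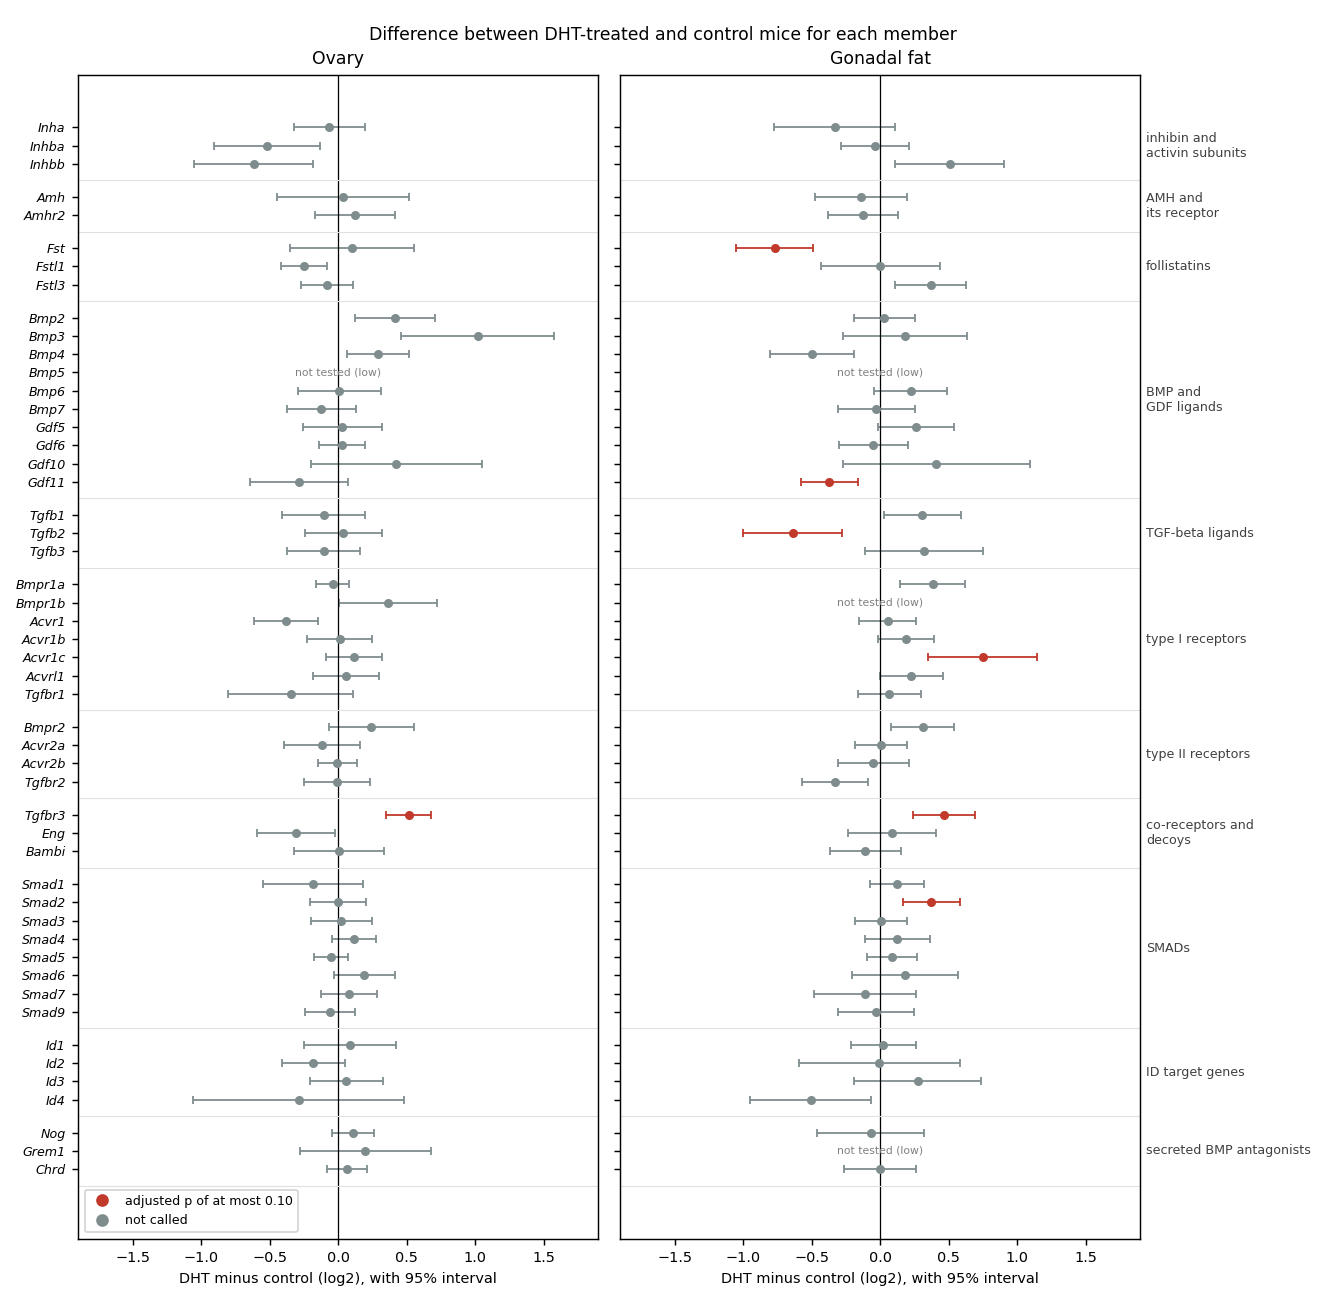
Change in DHT-treated against control mice (log2, DHT minus control, points with 95% intervals) for each tested gene of the family, grouped by role, in ovaries and in gonadal fat. Red marks an adjusted p of at most 0.10, reached by Tgfbr3 in the ovaries and by Acvr1c, Tgfbr3, Smad2, Fst, Tgfb2 and Gdf11 in gonadal fat.

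The arrays of a group spread little for most of these genes, with a median SD of 0.14 in the ovaries of DHT-treated mice and 0.13 in those of control mice, and of 0.12 in gonadal fat of DHT-treated mice and 0.15 in that of control mice. The widest spread was that of Id4 in ovaries of DHT-treated mice (SD 0.57) and of Gdf10 in control fat (SD 0.62). In the ovaries, 5 family genes lay higher on all 3 arrays of DHT-treated mice than on any array of control mice (Bmp2, Bmp3, Bmp4, Bmpr1b and Tgfbr3), and 5 lay lower (Inhba, Inhbb, Fstl1, Acvr1 and Eng). Of all genes tested there, 6.88% lay wholly above and 13.1% wholly below. In gonadal fat, 10 lay wholly above (Fstl3, Tgfb1, Bmpr1a, Acvr1b, Acvr1c, Acvrl1, Bmpr2, Tgfbr3, Smad2 and Smad5) and 6 wholly below (Fst, Bmp4, Gdf11, Tgfb2, Tgfbr2 and Id4), against 14.5% and 8.23% of all genes.

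Cell type marker lists moved with treatment in both tissues. In the ovaries, the mean of the corpus luteum list (7 of its 9 genes had a row) was 7.47 to 7.88 in DHT-treated mice, against 9.29 to 10.7 in control mice. Its member Akr1c18, the progesterone-degrading enzyme of the regressing corpus luteum, had 3.92, 3.96 and 4.10 in DHT-treated mice, against 7.68, 11.8 and 11.9 in control mice, so the groups were far apart. The ovarian adipocyte list (9 of 10 genes) was 6.21 to 6.84 in DHT-treated mice, against 6.89 to 7.51 in control mice, while the granulosa list overlapped (8.12 to 8.46 in DHT-treated mice, against 8.21 to 8.24 in control mice). In gonadal fat, the adipocyte list was higher (10.6 to 10.8 in DHT-treated mice, against 10.1 to 10.3 in control mice). Lep had by far its highest change there (2.08), while the median change was 0.35 and 1 of 9 genes was below 0. Only Lep and Lipe were called in fat. The adipocyte list thus moved in opposite directions in the tissues. The mean of the progenitor and fibroblast list (7 of 9 genes) was lower, at 6.99 to 7.04 in DHT-treated mice, against 7.21 to 7.96 in control mice. Its lowest changes were those of the matrix genes Lum (-2.03, the only one called) and Col1a1 (-0.75), while the median change of the list was -0.11 and 2 of 7 genes were above 0. Mesothelial markers (8 of 8 genes) were also lower, at 5.47 to 6.07 in DHT-treated mice, against 6.09 to 6.37 in control mice. The granulosa list was low in fat, at 4.57 to 4.72 in DHT-treated mice, against 4.74 to 4.88 in control mice. The corpus luteum list was 4.14 to 4.20 in fat of DHT-treated mice, against 4.45 to 4.602 in control mice, with Cyp11a1, Hsd3b1 and Akr1c18 below the median of every array and Star, Ptgfr and Parm1 called lower (3 of 4 tested). From the arrays alone, fewer cells of a type and less RNA per cell cannot be told apart. By histology, the paper found corpora lutea to be absent from DHT-treated ovaries. The part of that absence in the ovarian changes below was not tested. The smooth muscle list set control replicate 1 apart in gonadal fat (7.14, 8.33 and 7.86 in DHT-treated mice, against 9.64, 7.88 and 8.31 in control mice). The fat changes of Bmp4, Tgfb2, Tgfbr2 and Id4, which were highest on that array, are therefore also given without it. Other genes highest there, among them Nbl1, Mmp2, Lum and Col1a1, are given only with it included.

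**Figure D2:**
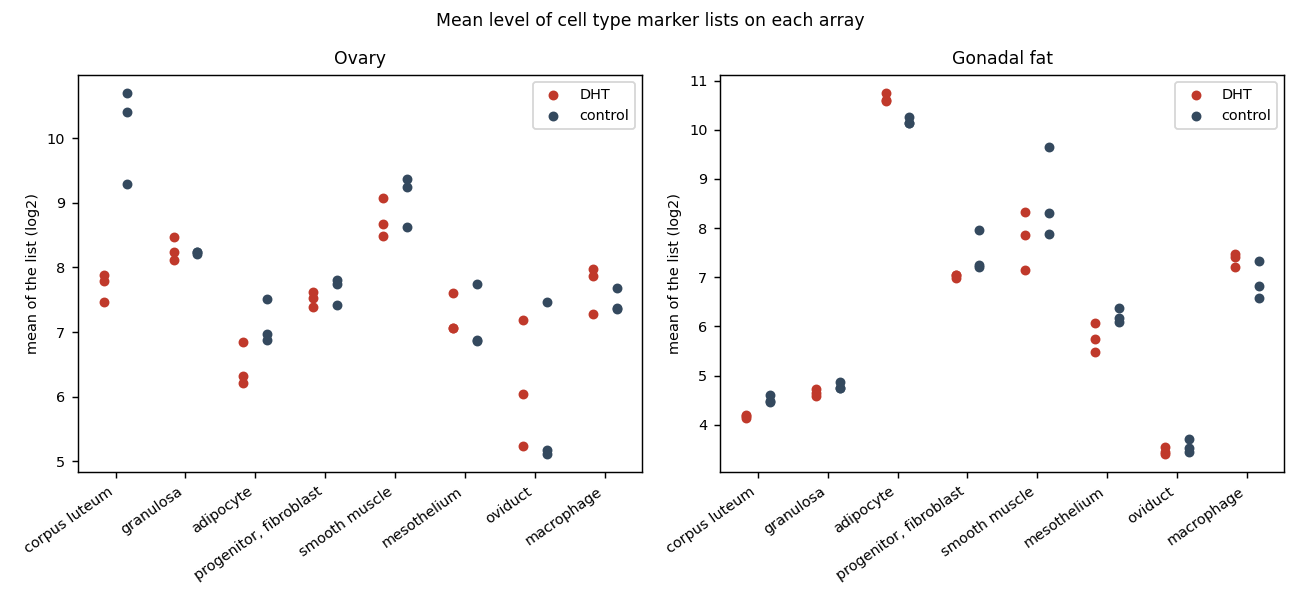
Mean log2 level of each cell type marker list on each array, DHT-treated mice left of control mice, in ovaries and in gonadal fat. The corpus luteum list in the ovaries (7.47 to 7.88 in DHT-treated mice, against 9.29 to 10.7 in control mice) and the adipocyte list in gonadal fat (10.6 to 10.8, against 10.1 to 10.3) do not overlap between the groups.

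The promoters of 3 genes are shown because they belong to the genes on which the results below turn, namely Inhbb and Bmp4, which had the smallest adjusted p for the difference between tissues, and Tgfb2, the TGF-beta ligand called in gonadal fat. Each is the RefSeq window of 300 bases on GRCm38.p6, from 250 bases before the annotated start to 50 after it, read 5′ to 3′ on the minus strand, at chr1:119422199-119422498, chr14:46390620-46390919 and chr1:186705940-186706239 in the order printed. Capitals mark matches to the androgen receptor core motif AGAACA or its reverse complement. They also mark the SMAD-binding core CAGAC or its reverse complement, so that both were searched on either strand. Neither motif holds the other, although the last letters of the first can be the first letters of the second.
Inhbb: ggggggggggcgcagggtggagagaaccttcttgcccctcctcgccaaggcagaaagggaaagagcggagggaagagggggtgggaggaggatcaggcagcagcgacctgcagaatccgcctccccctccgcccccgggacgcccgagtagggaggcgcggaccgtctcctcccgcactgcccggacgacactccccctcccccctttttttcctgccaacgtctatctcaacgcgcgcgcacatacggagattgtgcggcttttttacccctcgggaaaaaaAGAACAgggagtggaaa
Bmp4: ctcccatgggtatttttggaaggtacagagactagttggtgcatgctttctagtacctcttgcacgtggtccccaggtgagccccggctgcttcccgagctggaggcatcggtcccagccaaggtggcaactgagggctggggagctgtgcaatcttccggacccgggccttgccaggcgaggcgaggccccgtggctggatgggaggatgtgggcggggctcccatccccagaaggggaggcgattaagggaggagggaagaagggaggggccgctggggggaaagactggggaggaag
Tgfb2: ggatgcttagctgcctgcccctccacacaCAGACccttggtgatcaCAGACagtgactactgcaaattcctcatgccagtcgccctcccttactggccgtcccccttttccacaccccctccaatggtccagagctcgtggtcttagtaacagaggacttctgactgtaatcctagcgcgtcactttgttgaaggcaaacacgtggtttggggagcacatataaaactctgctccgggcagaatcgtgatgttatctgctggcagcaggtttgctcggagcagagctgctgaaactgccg
The Inhbb window held 1 androgen receptor core, at position 284, past the annotated start. The Tgfb2 window held 2 SMAD cores, at positions 30 and 47, which is 221 and 204 bases before the start. Neither motif was found in the Bmp4 window. Of the family, 34 genes had 40 such windows, of which 4 (those of Bmpr2, Fstl3, Inhbb and Smad6, 10%) held the androgen receptor core, against 6233 of 32851 mouse windows (19%). The SMAD core was in 17 (42.5%), against 49.6% of all windows.

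Among the inhibin and activin subunits, the effect of DHT on Inhbb differed between the tissues, with a negative fitted change in the ovaries and a positive one in gonadal fat. Inhbb encodes the beta B subunit, which forms activin B or, with the alpha subunit, inhibin B. In the ovaries it had 8.60, 9.01 and 8.52 in DHT-treated mice, against 9.07, 9.63 and 9.29 in control mice. In gonadal fat it had 5.84, 6.08 and 6.29 in DHT-treated mice, against 5.57, 5.87 and 5.25 in control mice. Every DHT array lay below every control array in the ovaries, and in gonadal fat the groups overlapped at 1 array each. Neither change was called by itself as deposited (-0.62 in the ovaries, SE 0.18, adjusted p = 0.22, and 0.51 in gonadal fat, SE 0.17, adjusted p = 0.20). The difference between the tissues (effect in fat minus effect in ovaries) was 1.13 (SE 0.27, 95% interval 0.54 to 1.71, adjusted p = 0.048). Leaving out 1 array at a time kept this call in 7 of 12 fits (adjusted p 0.039 to 0.106). With the mean of the adipocyte genes Adipoq, Retn, Plin1 and Cidec as a covariate, the change in gonadal fat was 0.92 with an adjusted p of 0.036. This covariate was itself tied to treatment, more clearly in the ovaries. It was 5.64 to 6.52 in ovaries of DHT-treated mice, against 6.62 to 7.58 in control mice, without overlap. In gonadal fat it tended higher with DHT, at 10.57 to 10.85, against 10.40 to 10.58 in control mice, but the groups overlapped. Calls lost or gained with it, here and below, therefore cannot be assigned to adipocyte content or to treatment.

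Inhba, the beta A subunit, showed a change of the same sign in the ovaries without being called. It had 7.50, 7.57 and 7.07 in DHT-treated mice, against 7.68, 8.09 and 7.93 in control mice, with no overlap (-0.52, SE 0.16, adjusted p = 0.24). Without DHT replicate 3 and control replicate 2, the ovarian change was -0.27 for Inhba and -0.37 for Inhbb. These arrays had the highest oviduct marker means (7.18 and 7.46). DHT replicate 2, which also carried oviduct RNA (mean 6.05, Ovgp1 at 10.3), stayed in that fit. In gonadal fat the change of Inhba was -0.04 (adjusted p = 0.88). Inha, the alpha subunit that makes inhibins, overlapped between the groups in the ovaries, at 11.38 to 11.79 in DHT-treated mice, against 11.58 to 11.65 in control mice (-0.07, adjusted p = 0.89). Its change in gonadal fat was -0.33 (adjusted p = 0.43). All 3 subunits were below 0 in the ovaries under each scaling tried, none of them called. The corpus luteum list was lower on the same arrays, and its part in the ovarian values of these and the following genes was not tested. Amh and its type II receptor Amhr2 changed by 0.03 and 0.12 in the ovaries (adjusted p = 0.97 and 0.78), with 95% intervals of -0.45 to 0.52 and -0.17 to 0.41. In gonadal fat they changed by -0.14 and -0.13 (adjusted p = 0.68 and 0.62).

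Follistatin (Fst), the secreted protein that binds activins and keeps them from their receptors, fell in gonadal fat. It had 5.55, 5.59 and 5.19 in DHT-treated mice, against 6.13, 6.28 and 6.25 in control mice, which is 1.71-fold lower. The highest DHT array lay below the lowest control array by more than the range of either group. The change was -0.77 (SE 0.12, 95% interval -1.06 to -0.49, adjusted p = 0.026). In the ovaries Fst had 8.02, 7.59 and 7.33 in DHT-treated mice, against 7.52, 7.77 and 7.37 in control mice, which overlapped (0.10, SE 0.19, adjusted p = 0.91). The effects in gonadal fat and ovaries differed by -0.87 (SE 0.24, adjusted p = 0.073). In gonadal fat the call was lost without control replicate 3 alone (-0.76, adjusted p = 0.106) and was kept without any of the other 5 arrays. It was also kept with the adipocyte covariate (-0.91, adjusted p = 0.064). The tissue difference was called in 4 of 12 fits without 1 array (adjusted p 0.045 to 0.168).

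The follistatin-like genes had other patterns, and neither was called in the values as deposited. Fstl3, which also binds activins, had 6.39, 6.58 and 6.61 in fat of DHT-treated mice, against 6.04, 6.35 and 6.10 in control mice. The groups did not overlap, but the change of 0.37 (SE 0.11) missed the threshold (adjusted p = 0.17), and in the ovaries it was -0.08 (adjusted p = 0.76). In gonadal fat it was called with the adipocyte covariate (0.58, adjusted p = 0.087), after median centring (0.44, 0.078) and with all 12 arrays in 1 fit (0.055). Fstl1, a secreted glycoprotein of mesenchymal cells, had 8.18, 8.19 and 8.13 in ovaries of DHT-treated mice, against 8.55, 8.38 and 8.33 in control mice (-0.25, SE 0.07, adjusted p = 0.20). Its fat level was 7.37, 7.40 and 7.35 in DHT-treated mice, against 7.86, 7.08 and 7.18 in control mice, where control replicate 1 was the high array.

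**Figure D3:**
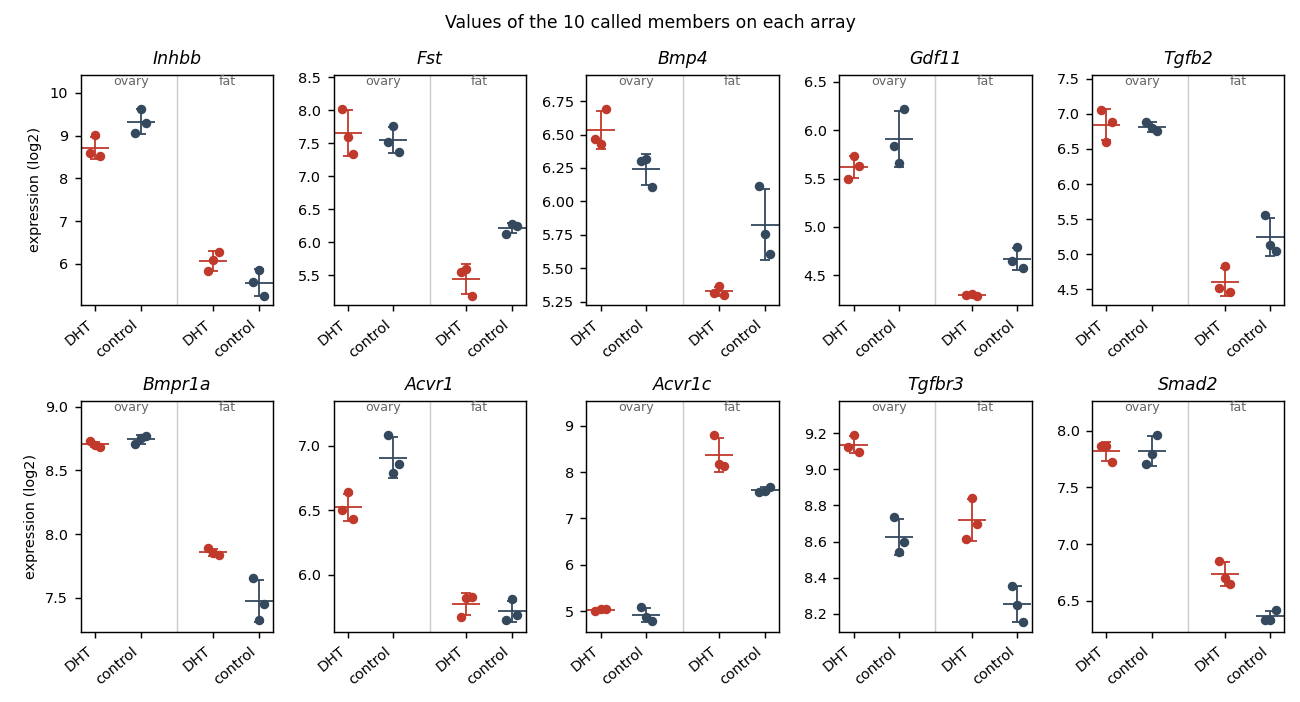
Log2 level of the 10 genes of the family called in a tissue or for the difference between tissues, on each array (points) with mean ± SD (n = 3 per group), DHT-treated mice left of control mice. Tgfbr3 is higher in DHT-treated mice in both tissues (9.10 to 9.19 against 8.54 to 8.74 in the ovaries, 8.61 to 8.84 against 8.15 to 8.35 in gonadal fat), and Fst is lower in gonadal fat (5.19 to 5.59 against 6.13 to 6.28).

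Of the BMP and GDF ligands, none was called in the ovaries (9 tested) and Gdf11 was called in gonadal fat (9 tested). Bmp4, a ligand that commits mesenchymal cells toward adipocytes, also differed in its DHT effect between the tissues, with the signs the other way round. It had 6.47, 6.43 and 6.69 in ovaries of DHT-treated mice, against 6.30, 6.31 and 6.11 in control mice. Its fat level was 5.31, 5.37 and 5.30 in DHT-treated mice, against 6.12, 5.76 and 5.60 in control mice. The groups did not overlap in either tissue, with DHT arrays above in the ovaries and below in gonadal fat. By itself neither change was called (0.29, SE 0.09, adjusted p = 0.26 in the ovaries, and -0.50, SE 0.13, adjusted p = 0.12 in gonadal fat), although the fat change was called with all 12 arrays in 1 fit (adjusted p = 0.035) and with the 75th percentile filter (0.088). The fat effect minus the ovary effect was -0.79 (SE 0.17, 95% interval -1.17 to -0.41, adjusted p = 0.034), and it was called without any 1 of the 12 arrays (adjusted p 0.023 to 0.088). Without control replicate 1, the array with the most smooth muscle RNA, the change in gonadal fat was -0.35 (adjusted p = 0.14).

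Gdf11, a close relative of myostatin, had 4.29, 4.31 and 4.29 in gonadal fat of DHT-treated mice, against 4.64, 4.80 and 4.57 in control mice. Its DHT arrays lay close together and below all control arrays (-0.37, SE 0.09, adjusted p = 0.089). In the ovaries it changed by -0.29 (SE 0.15, adjusted p = 0.49), and the effects in the tissues differed by -0.08 (95% interval -0.47 to 0.30, adjusted p = 0.82). The call in gonadal fat was lost when any 1 array was left out (adjusted p 0.137 to 0.297) and with the adipocyte covariate (-0.30, adjusted p = 0.36).

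Bmp3, which opposes other BMPs in bone, had the largest fitted change of the family in the ovaries. It had 7.997, 7.82 and 7.39 in DHT-treated mice, against 6.29, 6.82 and 7.05 in control mice. All DHT arrays were above all control arrays, but the control arrays ranged widely, and the change of 1.02 (2.03-fold, SE 0.23, 95% interval 0.46 to 1.58) had an unadjusted p of 0.0039 and an adjusted p of 0.16 with limma. It met the criteria named in the methods, at least 2-fold and an unadjusted p of at most 0.01, but was not called by adjusted p. In gonadal fat Bmp3 changed by 0.18 (SE 0.20, adjusted p = 0.69), and the difference between tissues was -0.84 (SE 0.33, adjusted p = 0.19). Bmp2, a BMP of ovarian follicles, had 7.25, 7.06 and 6.77 in ovaries of DHT-treated mice, against 6.64, 6.64 and 6.56 in control mice, without overlap (0.42, SE 0.12, adjusted p = 0.22). It changed by 0.03 in gonadal fat. The other ligands of this group that were tested (Bmp6, Bmp7, Gdf5, Gdf6 and Gdf10) changed by -0.12 to 0.42 in ovaries and by -0.05 to 0.41 in gonadal fat, none called.

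Tgfb2, one of the TGF-beta ligands, fell in gonadal fat. It had 4.52, 4.83 and 4.46 in DHT-treated mice, against 5.56, 5.13 and 5.05 in control mice, which is 1.56-fold lower. The groups did not overlap, and control replicate 1 was the highest array (-0.64, SE 0.16, adjusted p = 0.092). In the ovaries it had 7.05, 6.60 and 6.89 in DHT-treated mice, against 6.89, 6.79 and 6.75 in control mice (0.04, SE 0.12, adjusted p = 0.95). The difference between tissues, -0.68 (SE 0.21, adjusted p = 0.11), was not called. In gonadal fat the call was lost without any 1 array (adjusted p 0.135 to 0.229, with -0.49 and 0.135 without control replicate 1) and with the adipocyte covariate (-0.64, adjusted p = 0.36). Tgfb1 had 6.52, 6.62 and 6.58 in gonadal fat of DHT-treated mice, against 6.33, 6.45 and 6.01 in control mice, without overlap and not called (0.31, adjusted p = 0.27, and 0.18 without control replicate 3). Tgfb3 changed by 0.32 in gonadal fat (adjusted p = 0.44), and both changed by -0.11 in the ovaries (adjusted p = 0.83 for Tgfb1 and 0.79 for Tgfb3).

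The type I receptors, which carry the signal to the SMADs, were all above 0 in gonadal fat (6 of 6 tested, median change 0.21, with 5 of 6 above 0 after quantile normalization), and 1 of them was called. Acvr1c, the activin and nodal receptor that is abundant in adipocytes, had 8.80, 8.17 and 8.13 in gonadal fat of DHT-treated mice, against 7.58, 7.59 and 7.69 in control mice. All DHT arrays were higher, and DHT replicate 1, which also had the highest adipocyte list mean, was the highest (0.75, 1.68-fold, SE 0.17, adjusted p = 0.079). Without that array the change was 0.53 (adjusted p = 0.053). The call was also kept without DHT replicate 3 (adjusted p = 0.082). It was lost without any of the other 4 arrays (adjusted p 0.141 to 0.199) and with the adipocyte covariate (0.36, adjusted p = 0.45). Quantile normalization, median centring and testing without a filter on low values each lost the call too. Ovarian Acvr1c changed by 0.11 (SE 0.09, adjusted p = 0.67), and the difference between tissues was 0.64 (SE 0.21, adjusted p = 0.13).

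Bmpr1a and Acvr1 were the type I receptors whose DHT effect differed between the tissues. Bmpr1a, a receptor for several BMPs, had 8.73, 8.70 and 8.69 in ovaries of DHT-treated mice, against 8.71, 8.76 and 8.77 in control mice, a change of -0.04 (SE 0.05). In gonadal fat it had 7.89, 7.85 and 7.83 in DHT-treated mice, against 7.65, 7.32 and 7.45 in control mice, a change of 0.38 (SE 0.10, adjusted p = 0.12). The ovary groups overlapped and the fat groups did not, and the difference was 0.42 (SE 0.11, adjusted p = 0.068). Acvr1, a type I receptor used by BMPs and AMH, had 6.50, 6.64 and 6.43 in ovaries of DHT-treated mice, against 7.08, 6.79 and 6.86 in control mice (-0.38, SE 0.10, adjusted p = 0.18). Its fat groups overlapped, at 5.67, 5.82 and 5.83 in DHT-treated mice, against 5.66, 5.81 and 5.69 in control mice (0.05, adjusted p = 0.79). The difference of 0.44 (SE 0.13) lay just inside the threshold (adjusted p = 0.0995), and it was lost without any 1 of the 12 arrays (adjusted p 0.103 to 0.191), while that of Bmpr1a was kept in 3 of 12 (adjusted p 0.018 to 0.150). With the group and number as a block, which pairs the tissues, the difference had an adjusted p of 0.109 for Bmpr1a and 0.136 for Acvr1, so neither was called.

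The remaining type I receptors were not called. Bmpr1b, a BMP receptor of granulosa cells whose mutation raises litter size in sheep, had 8.76, 8.27 and 8.27 in ovaries of DHT-treated mice, against 8.004, 8.22 and 7.98 in control mice, a narrow separation (0.36, SE 0.15, adjusted p = 0.37). The change was 0.20 without DHT replicate 1 and 0.58 with the adipocyte covariate, neither called. Acvrl1, the endothelial receptor of the group, changed by 0.06 in the ovaries and 0.23 in gonadal fat (adjusted p = 0.90 and 0.32). Acvr1b and Tgfbr1 changed by 0.01 and -0.35 in the ovaries and by 0.19 and 0.07 in gonadal fat. For all 6 type I receptors tested in both tissues, the effect in gonadal fat lay above that in the ovaries (median difference 0.42, also 6 of 6 under each scaling tried), of which Bmpr1a and Acvr1 were called.

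**Figure D4:**
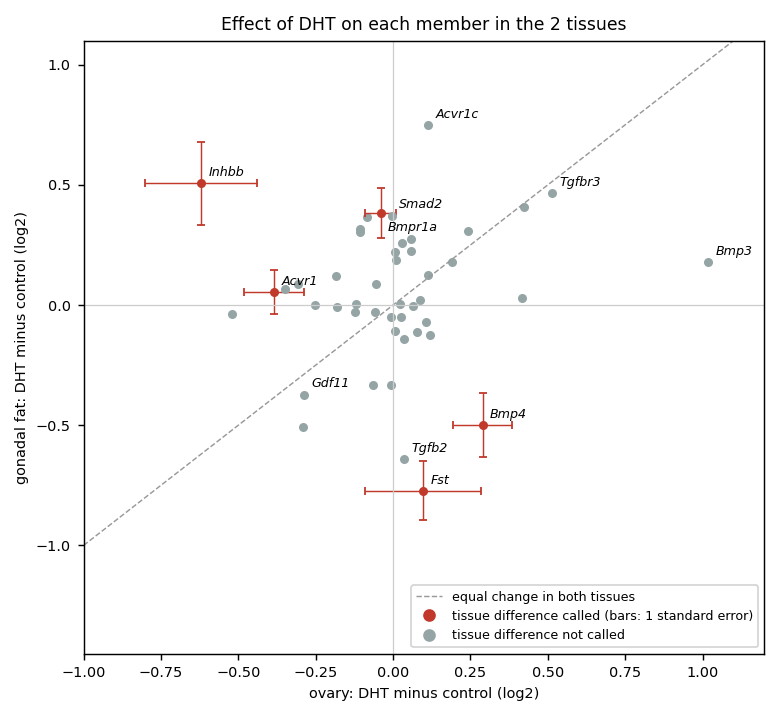
Change in DHT-treated against control mice (log2) in the ovaries (x axis) and in gonadal fat (y axis) for the 47 genes of the family tested in both tissues, with a dashed line of equal change. Red, with bars of 1 SE, marks the 5 genes whose effects differ between the tissues at an adjusted p of at most 0.10 (Inhbb, Bmpr1a and Acvr1 higher in gonadal fat, Fst and Bmp4 lower), while Tgfbr3 lies near the diagonal.

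Tgfbr3 rose in both tissues. It encodes betaglycan, a co-receptor that presents TGF-beta ligands to their receptors and also binds inhibin. In the ovaries it had 9.12, 9.19 and 9.10 in DHT-treated mice, against 8.74, 8.54 and 8.60 in control mice. In gonadal fat it had 8.61, 8.84 and 8.70 in DHT-treated mice, against 8.35, 8.25 and 8.15 in control mice. The DHT arrays were clear of the control arrays in each tissue. The change was 0.51 in the ovaries (1.43-fold, SE 0.07, adjusted p = 0.047) and 0.47 in gonadal fat (1.38-fold, SE 0.10, adjusted p = 0.062). These effects differed by -0.05, with a 95% interval of -0.31 to 0.21 (adjusted p = 0.85). In the ovaries the call was kept without control replicate 1 (adjusted p = 0.054). It was lost without any of the other 5 arrays (adjusted p 0.139 to 0.173, change 0.47 to 0.53). The change was 0.52 with oviduct markers as a covariate (adjusted p = 0.033) and 0.58 with the adipocyte covariate (adjusted p = 0.23). Without both DHT replicate 3 and control replicate 2, which had the highest oviduct marker means, the change was 0.49 and not called (adjusted p = 0.32). In gonadal fat the call was kept without DHT replicate 1 (adjusted p = 0.083) or control replicate 1 (0.080). It was lost without any of the other 4 arrays (0.119 to 0.261) and with the adipocyte covariate (0.55, adjusted p = 0.13). The fat call was also lost after quantile normalization.

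Of the other co-receptors and decoys, Eng, the endothelial co-receptor endoglin, had 8.14, 8.10 and 8.02 in ovaries of DHT-treated mice, against 8.32, 8.21 and 8.66 in control mice (-0.31, SE 0.12, adjusted p = 0.33), and the change was -0.18 without control replicate 3. Bambi, a decoy receptor without a kinase, changed by 0.01 in the ovaries and -0.11 in gonadal fat (adjusted p = 0.99 and 0.67). None of the 4 type II receptors was called in either tissue. In gonadal fat, the BMP receptor Bmpr2 had 8.59, 8.60 and 8.36 in DHT-treated mice, against 8.28, 8.14 and 8.20 in control mice (0.31, adjusted p = 0.18). The TGF-beta receptor Tgfbr2 had 8.002, 7.996 and 7.80 in DHT-treated mice, against 8.41, 8.18 and 8.20 in control mice (-0.33, adjusted p = 0.17). These receptors separated the groups in opposite directions without passing the test as deposited. After quantile normalization Tgfbr2 was called (-0.46, adjusted p = 0.032) and the change of Bmpr2 was 0.18. With all 12 arrays in 1 fit, Tgfbr2 was also called (adjusted p = 0.088). Without control replicate 1, its highest fat array, the change of Tgfbr2 was -0.26 as deposited (adjusted p = 0.26). The activin receptors Acvr2a and Acvr2b changed by -0.12 and -0.01 in the ovaries and by 0.00 and -0.05 in gonadal fat.

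Among the 8 SMADs, Smad2 rose in gonadal fat and the rest were not called in either tissue. Smad2 had 6.85, 6.70 and 6.65 in DHT-treated mice, against 6.34, 6.33 and 6.42 in control mice. The groups did not overlap (0.37, 1.29-fold, SE 0.09, adjusted p = 0.090). In the ovaries it had 7.86, 7.87 and 7.72 in DHT-treated mice, against 7.70, 7.79 and 7.96 in control mice, which overlapped (-0.00, SE 0.08, adjusted p = 0.99). The difference between tissues was 0.38 (SE 0.12, adjusted p = 0.12), and it was called with the group and number as a block (adjusted p = 0.094). The fat call was lost without any 1 array (adjusted p 0.119 to 0.282) and with the adipocyte covariate (0.24, adjusted p = 0.39). Smad4, the common partner, changed by 0.11 in the ovaries and 0.13 in gonadal fat (adjusted p = 0.56 and 0.59). Smad6, which inhibits BMP signalling, changed by 0.19 and 0.18 (adjusted p = 0.46 in the ovaries and 0.64 in gonadal fat, where the adipocyte covariate gave 0.61 with an adjusted p of 0.062), and the other 5 SMADs by -0.19 to 0.08 in ovaries and -0.11 to 0.12 in fat pads.

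The ID genes, helix-loop-helix proteins that are direct BMP targets, were not called in either tissue. Id4 had 5.53, 5.62 and 5.49 in gonadal fat of DHT-treated mice, against 6.53, 5.69 and 5.95 in control mice, where control replicate 1 was the highest array (-0.51, SE 0.19, adjusted p = 0.24). Without that array the change was -0.27 (adjusted p = 0.27). In the ovaries Id4 changed by -0.29 with a 95% interval of -1.06 to 0.48. Id2 changed by -0.18 in the ovaries (adjusted p = 0.50) and by -0.01 in gonadal fat, and Id1 and Id3 by 0.09 and 0.06 in the ovaries and by 0.02 and 0.27 in gonadal fat. The secreted BMP antagonists were also not called, with changes of 0.11 for Nog, 0.20 for Grem1 and 0.06 for Chrd in the ovaries, and of -0.07 for Nog and -0.00 for Chrd in gonadal fat.

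Another 88 genes of the pathway were listed by role, also with earlier results known, and 83 of them had a row. In the ovaries, 74 were tested, 2 rose and 2 fell (5.41% called, against 1.26% of all genes). Chrdl1, a secreted BMP antagonist, had 7.47, 7.06 and 7.16 in DHT-treated mice, against 6.26, 6.30 and 6.36 in control mice (0.92, adjusted p = 0.037), and Ltbp2, of the latent TGF-beta binding protein family, was also higher (0.42, adjusted p = 0.047). Both separated the groups without overlap. Timp1, a metalloprotease inhibitor induced by TGF-beta, had 6.40, 6.53 and 6.23 in DHT-treated mice, against 7.56, 7.08 and 7.54 in control mice (-1.01, adjusted p = 0.060), and Lrrc32, which holds latent TGF-beta at the cell surface, was also lower (-0.45, adjusted p = 0.082). Of 13 TGF-beta target genes, 11 were below 0 in the ovaries (median -0.27, against -0.00 over all genes), of which Timp1 was called. In gonadal fat, 8 of the 13 were below 0 (median -0.09). The list shares Col1a1 with the fibroblast list, and Acta2 and Tagln with the smooth muscle list. All 7 smooth muscle markers, Acta2 and Tagln included, were below 0 in the ovaries (median -0.35). The part of these cell types was not tested. The largest ovarian change of the TGF-beta target list had the other sign. Ccn2, a matrix protein gene induced by TGF-beta, had 8.64, 7.76 and 7.86 in ovaries of DHT-treated mice, against 6.54, 7.34 and 7.31 in control mice, without overlap (1.02, adjusted p = 0.22). Its change in gonadal fat was -0.19, and the effects in the tissues differed by -1.21 (adjusted p = 0.080). None of the 10 other ligands, 19 intracellular modulators or 6 BMP targets outside the family that were tested was called in the ovaries.

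In gonadal fat, 70 of these genes were tested, 2 rose and 2 fell (5.71% called, against 3.88% of all genes). Bmper, a secreted BMP modulator, had 6.09, 6.33 and 5.96 in DHT-treated mice, against 5.55, 5.41 and 5.45 in control mice (0.66, adjusted p = 0.033), and Sptbn1, a spectrin that acts as a SMAD adaptor, was also higher (0.46, adjusted p = 0.038). Nbl1, a secreted BMP antagonist, had 6.57, 6.83 and 6.81 in DHT-treated mice, against 7.60, 7.42 and 7.27 in control mice (-0.69, adjusted p = 0.032). Mmp2, a matrix metalloprotease made by fibroblasts, had 6.99, 7.15 and 6.92 in DHT-treated mice, against 8.31, 7.93 and 7.45 in control mice (-0.88, adjusted p = 0.072). All 4 separated the groups. The matrix genes Lum and Col1a1 had lower values on the same arrays, and their part in these values was not tested. None of the 8 other ligands, 10 latent TGF-beta genes or 5 BMP targets outside the family that were tested was called in gonadal fat.

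**Figure D5:**
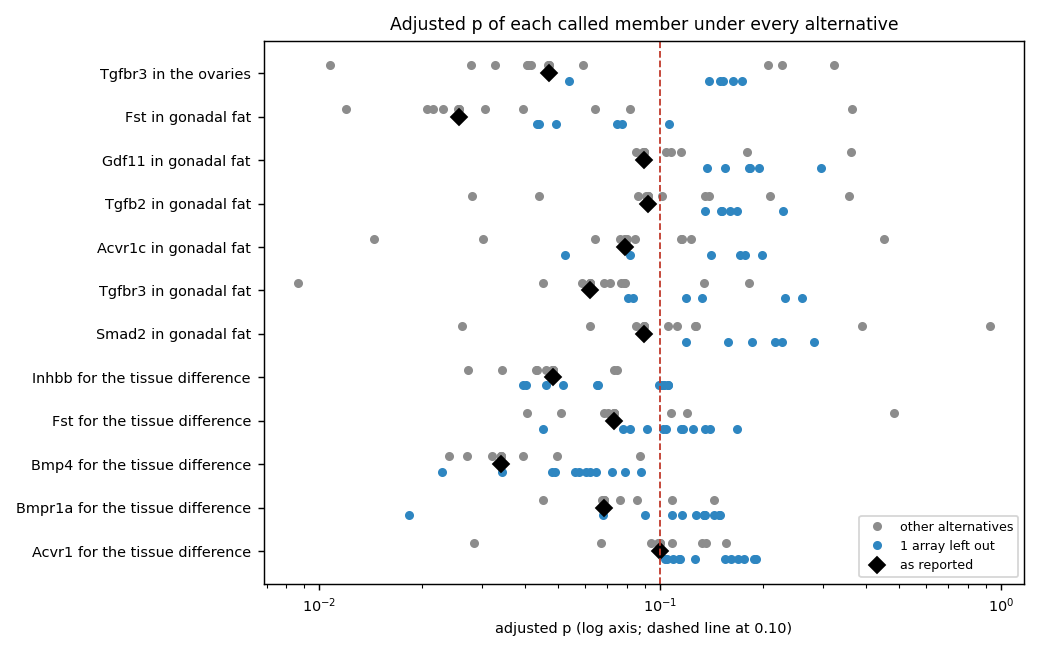
Adjusted p (log axis) of each called gene of the family under every alternative setting tried, with the threshold of 0.10 dashed. Points left of the line keep the call, except under the methods' criteria and the stricter threshold of adjusted p. These leave the adjusted p itself unchanged, so a call lost under them can still lie left of the line. An example is Fst in gonadal fat, lost by the methods' criteria at an adjusted p of 0.026. Bmp4 for the difference between tissues stayed at or below 0.088 in all 12 fits without 1 array. Gdf11, Tgfb2 and Smad2 in gonadal fat lay right of the line in each such fit, so their calls were lost.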

How the data were processed

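RNA of 12 tissue samples was measured on Affymetrix Mouse Transcriptome arrays. The authors deposited 1 table of log2 values, from 0.698 to 13.2. MAS5 is named in the submitters' processing notes. The steps of normalization and the genome build were not given in the sources used here. No further scaling was applied. Of the rows, 30638 carried 1 gene symbol in the platform annotation, 2176 several and 33115 none, and rows with several or none were left out. For each gene the row with the highest mean in the tissue was kept. In the fat columns, rows of chromosomes 10 to 19 were re-paired by sorting their names with the sign _ ahead of digits.

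A gene was tested where it lay above the array median on at least 3 of 6 arrays of the tissue. Tests used limma 3.58.1 (lmFit and eBayes) in R 4.3.3, with Benjamini-Hochberg adjustment over all genes tested, and tables and plots used Python 3.11.15. The difference between tissues was a contrast of 4 group means over 12 arrays. The fits were tested on simulated data. The number of arrays limits the precision, and an exact permutation test of 3 against 3 cannot give a p below 0.1. With group means taken out, ovary and fat arrays of 1 number correlated at r of 0.139, 0.156 and 0.192 in DHT-treated mice and 0.114, 0.11 and 0.128 in control mice. Ovary and fat arrays of different number within a treatment had r of at most 0.0314. Arrays of different treatment, which cannot share a mouse, reached 0.294 (ovary DHT replicate 3 with fat control replicate 2). These values thus do not settle whether numbers pair the tissues, which the labels do not state. The contrast above used no pairing, and pairing was assumed only in the fit with the group and number as a block.

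Named genes were all called genes of the family, the 2 others of each role with the smallest p, those with a change of at least 1, and other pathway genes that were called. The family, lists and tests were chosen with earlier results of these data known. Results were also computed with quantile normalization or median centring, without a filter or with one at the 75th percentile, with rows of a gene averaged, with an intensity trend, with all arrays in 1 fit, a replicate block, covariates, stricter criteria or other row orders, and without single arrays.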

Additional observations from a re-analysis of the deposited data

Results flagged for a closer look

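For 5 genes of the family, the DHT effect in fat pads less that in ovaries differed from 0 in the test of the difference itself (limma, adjusted p of at most 0.10). The difference was 1.13 for Inhbb, 0.42 for Bmpr1a and 0.44 for Acvr1, all higher in gonadal fat, and -0.87 for Fst and -0.79 for Bmp4, both lower in gonadal fat. Of these, Inhbb and Bmp4 had fitted changes of opposite sign in the tissues without being called in either (-0.62 in the ovaries and 0.51 in gonadal fat for Inhbb, 0.29 and -0.50 for Bmp4), Fst and Bmpr1a had their larger change in gonadal fat (-0.77 and 0.38), and Acvr1 in the ovaries (-0.38). With the group and number as a block, which pairs the tissues, Inhbb, Fst and Bmp4 were called, Bmpr1a and Acvr1 were not (adjusted p = 0.109 and 0.136), and Smad2 was (0.38, adjusted p = 0.094). Acvr1 was also not called without any 1 of the 12 arrays.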

How the results depend on the processing

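With 3 arrays a group, most calls lay near the threshold. The 12 called results kept their call in 36 of 102 fits without 1 array and in 81 of 135 under other alternatives. Results of named genes that were not called were counted only at an unadjusted p of at most 0.05 (limma). These 26 stayed uncalled with the same sign in 201 of 210 and 284 of 306. Named results with a larger unadjusted p were left out of this count. With the row order as deposited, values of other genes stand in the rows of Smad2 and Fstl3, whose signs turned (-0.021 for Smad2 and -0.038 for Fstl3 in gonadal fat, -0.018 for the tissue difference of Smad2). Median centring moved the median tissue difference of all genes to 0.13, against 0.01 as deposited, and the share of calls that were higher to 30.5% in the ovaries (43.2% as deposited), 84.3% in gonadal fat (68.6%) and 89.5% for the difference (75.4%, with 62.1% after quantile normalization).

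In the ovaries, family genes called higher numbered 2 with all 12 arrays in 1 fit (Bmp3 joined, and 1 gene, Acvr1, was lower). They numbered 0 with a replicate block, with the adipocyte covariate or without both DHT replicate 3 and control replicate 2. Without 1 array they numbered 0 to 1, and lower ones 0 to 0. All genes called numbered 87 at an adjusted p of 0.05, 99 by the methods' criteria, 436 with all arrays and 3 with the block. They numbered 21 with the adipocyte and 485 with the oviduct covariate, 4 without both DHT replicate 3 and control replicate 2, and 43 to 181 without 1 array.

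In gonadal fat, family genes called higher numbered 0 at 0.05, by the methods' criteria or after quantile normalization, 1 without a filter, 5 with all arrays and 0 to 2 without 1 array. Those lower numbered 1 at 0.05, after median centring, without a filter, with the adipocyte covariate or over undisplaced rows, 0 by the methods' criteria or in the deposited order, and 0 to 1 without 1 array. All genes called numbered 340 at 0.05, 123 by the methods' criteria, 459 after median centring, 1925 with all arrays, 1123 with the block, 434 with the adipocyte covariate, 472 over undisplaced rows and 138 to 635 without 1 array. Counts that stayed at 3 did not always hold the same genes. With the adipocyte covariate the higher ones were Fstl3, Inhbb and Smad6, and after quantile normalization Tgfbr2 stood in place of Tgfb2 among the lower ones.

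For the tissue difference, family genes called higher numbered 1 at 0.05, by the methods' criteria, after quantile normalization or in the deposited order, 5 after median centring or with the stricter filter, and 0 to 4 without 1 array. Those lower numbered 1 at 0.05, after median centring or without a filter, 0 by the methods' criteria, in the deposited order or over undisplaced rows, and 1 to 3 without 1 array. All genes called numbered 531 at 0.05, 181 by the methods' criteria, 668 over undisplaced rows and 520 to 2050 without 1 array.

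Within a tissue the replicate numbers did not pair the arrays (r of 0.33, -0.245 and -0.475 in the ovaries, 0.268, -0.198 and -0.186 in gonadal fat). With the number as a block, Tgfbr3 in the ovaries had an adjusted p of 0.207 at the same change of 0.51, and in gonadal fat Gdf11 (0.115) and Smad2 (0.127) were lost and Bmp4 (0.072) was gained. With the group and number as a block for the tissue difference, calls other than those of Bmpr1a, Acvr1 and Smad2 did not change. The cause of these shifts was not tested.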
